A study of Mus musculus with 10 samples.

Results

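The genes described here are 8 transcription factors of the enterocyte, the absorptive cell of the small intestine: Hnf4a, Hnf4g, Cdx1, Cdx2, Gata4, Gata6, Klf4 and Klf5. They were chosen by name as 4 pairs of related factors, and all 8 were found among the 35006 gene names in the count files. Each of the 8 also passed the filter on low counts, which left 13706 genes to be tested.

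Enterocytes arise from dividing crypt cells and switch on genes for digestion, nutrient uptake and lipid export as they leave the crypt. HNF4A and HNF4G are nuclear receptors that drive much of that brush border and lipid program. The caudal homeobox factors CDX1 and CDX2 set intestinal identity, and the zinc finger factors GATA4 and GATA6 act with them, GATA4 mainly in the upper small intestine. KLF4 and KLF5 bind similar GC-rich sites and are known for contrasting places along the crypt, KLF5 in dividing cells and KLF4 in cells that have stopped dividing, goblet cells among them.

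The cells came from small intestinal crypts of EF1a-OSCAR mice on the C57BL6/J strain, in which a knock-in at the Rosa26 locus expresses the OSCAR reporter from the EF1a promoter. A Vasa-Cre driver had removed the stop cassette in the germ line, so the reporter is carried by every tissue and by all 5 populations. OSCAR pairs a red protein, mCherry, with a green protein whose light is dimmed when the kinase CDK9, which drives elongation by RNA polymerase II, phosphorylates it. A high green-to-red ratio (OSCARhigh) marks low CDK9 activity, and the EF1a axis of the sort reports how strongly the transgene is expressed. Live EpCAM-positive cells were sorted by flow cytometry, 10000 cells a population, and the polyadenylated RNA of each was sequenced.

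Population P1 was OSCARlow EF1alow, P2 was OSCARhigh EF1alow, P3 was OSCARlow EF1ahigh, P4 was OSCARmed EF1alow and P5 was OSCARmed EF1ahigh, with 2 libraries each. No treatment, age, sex or stretch of the small intestine is given in the sources used here. The study describes the libraries of a population as biological replicates. Whether these were separate animals is not given in the sources used here, and the p-values measure the spread between these libraries. Counts assigned to genes totalled 6242043 and 6302441 for P1, 4781844 and 6357588 for P2, 3857612 and 4699165 for P3, 5403910 and 6485823 for P4 and 6437900 and 6362446 for P5. Levels are counts divided by library sizes that were scaled by the trimmed mean of M-values (TMM-scaled CPM), and a mean is followed by the SD of n = 2 libraries.

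Some libraries stood apart from the rest or went against their description. The share of counts on mitochondrial genes was 59.2% and 36.1% for P3. It was 5.19% and 3.96% for P5, 3.88% and 3.47% for P4, 1.78% and 1.17% for P1 and 1.04% and 1.04% for P2. The study's text assigns the secretory cells to another population than the one whose libraries hold their markers here. The 8 Paneth cell markers summed to 577198 and 414012 TMM-scaled CPM in the libraries labelled P2 and to 3491 and 1869 in those labelled P3, and the 8 goblet cell markers to 56345 and 125626 and to 1991 and 4249. Whether the labels P2 and P3 were exchanged could not be settled here. The study also reports OSCARhigh cells in stained sections as negative for Ki67 protein, and sorted P2 cells as lowest in RNA content. The cells of the sections were not sorted by the P2 gate, and these libraries do not measure RNA content per cell. The study describes Krt19 and Hnf4a as enriched in P2. The mRNA of Mki67 was at 32.3 and 27.7 TMM-scaled CPM in the libraries labelled P2 and at 285 and 554 in those labelled P3. The cycling genes, Krt19 and Hnf4a also differed between these libraries and are given below. They were not used to decide whether the labels were exchanged. An exchange would change the gate that every value of these libraries stands for, and would leave P1, P4 and P5 as given. Population numbers written with the deposited counts also differ from those of the sample titles, which were followed. The libraries are therefore named by their labels, and the calls of the 8 factors are given with and without those labelled P3, or P2 and P3, where a comparison can be made without them. The samples are bulk RNA, in which fewer cells of a type and less RNA per cell cannot be told apart.

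All 6 pan-epithelial markers (Epcam, Cdh1, Krt8, Krt18, Krt19 and Cldn7) were found in each library, with summed levels from 3618 to 8882 TMM-scaled CPM. Krt19 was highest in the libraries labelled P3, at 2668 and 1632, and at 267 and 541 in those labelled P2. The study, by contrast, describes Krt19 as enriched in P2. The 9 stromal and endothelial markers summed to at most 53.5, and 7 of them did not pass the filter. The 8 immune markers, led by the granzyme gene Gzma of intraepithelial lymphocytes, reached 918 and 273 in P1 and 174 and 6.22 in P3, against at most 23.9 in any library of the other populations. Red cell genes were highest in the libraries labelled P3, at 194 and 104 for the 5 markers together.

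Each of the 8 factors was well covered, with 116 counts (Klf4) the fewest in any one library and 8819 (Hnf4a) the most. Per kilobase of annotated exon, the mean level over the 10 libraries was 176 TMM-scaled CPM for Hnf4a, 113 for Hnf4g, 99.998 for Cdx1, 98.4 for Klf5, 81.5 for Cdx2, 69.5 for Klf4, 39.3 for Gata4 and 32.7 for Gata6. Among all genes tested, Hnf4a ranked 53 by mean log2 CPM over the 10 libraries and Gata6, the lowest of the 8 in this pool, ranked 1588. The order of the means differed by population. In P1, Hnf4g was at 291 ± 53.0 per kilobase and Hnf4a at 256 ± 34.3, and Klf4 was the lowest of the 8 in P3, P4 and P5. In the libraries labelled P2, Cdx1 was at 110 ± 13.4, Hnf4a at 108 ± 34.8 and Hnf4g at 21.7 ± 11.8. The spread over populations differed between the factors. The highest population mean was 13.7 times the lowest for Klf4 and 13.4 times for Hnf4g, but 1.36 times for Cdx1.

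**Figure D1:**
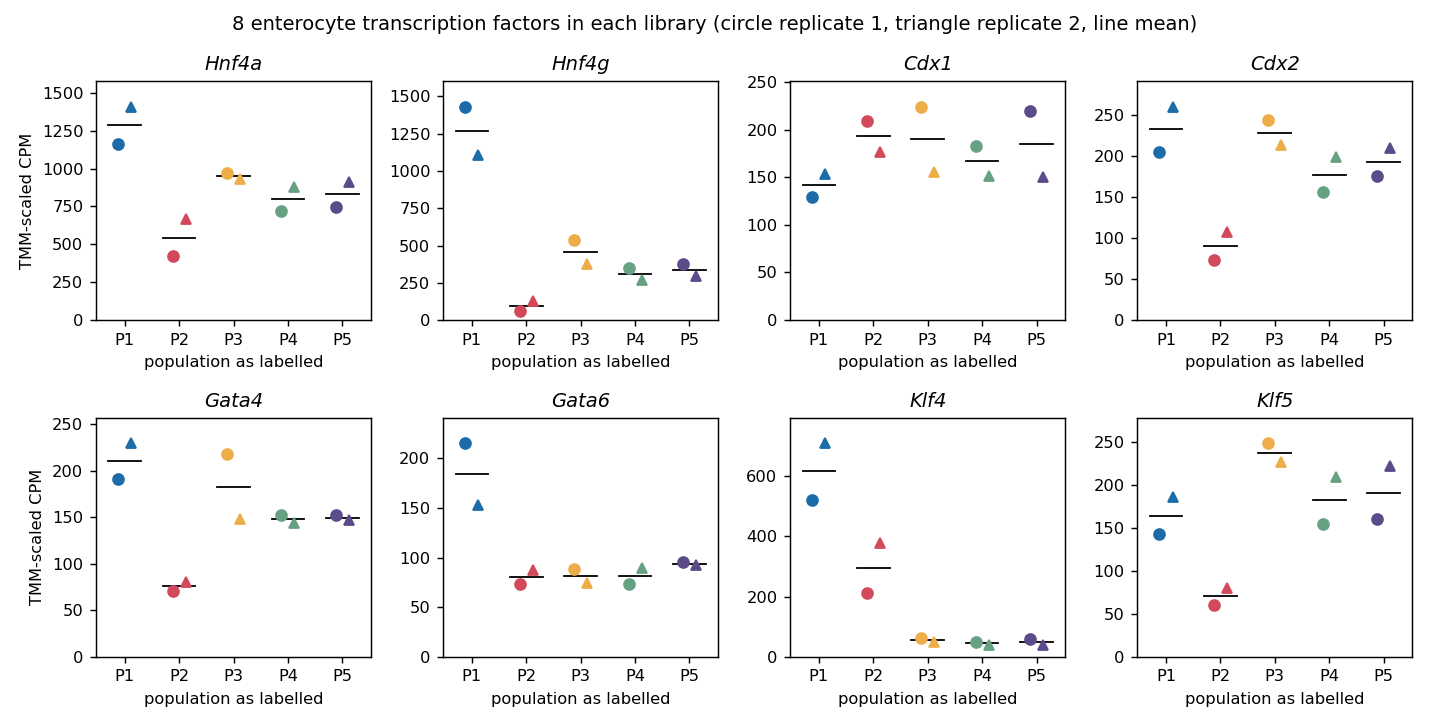
TMM-scaled CPM of each of the 8 factors (vertical axes, linear from 0, one scale per gene) in the 10 libraries, grouped by labelled population; circles are replicate 1, triangles replicate 2 and lines the mean of n = 2. Both P1 libraries lie above all others for Hnf4a, Hnf4g, Gata6 and Klf4. Both libraries labelled P2 lie below all others for Hnf4a, Hnf4g, Cdx2, Gata4 and Klf5, and Cdx1 overlaps across neighbouring populations.

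With all 5 populations tested together, 5 of the 8 factors (Hnf4g, Gata4, Gata6, Klf4 and Klf5) passed an adjusted p of 0.01 in edgeR's quasi-likelihood F test, where 36.3% of all 13706 genes did. Klf4 had the smallest adjusted p (0.000206), followed by Hnf4g (0.000993), Gata6 (0.00423), Klf5 (0.00561) and Gata4 (0.00585). Cdx2 (adjusted p = 0.0122), Hnf4a (0.0612) and Cdx1 (0.546) missed it. The count was 6 with a replicate block, 6 with no filter on low counts, 6 at a threshold of 0.05 and 7 in DESeq2. Without the libraries labelled P2 and P3, the same test over P1, P4 and P5 called 3 of the 8 factors, against 29.0% of the genes then tested, and without those labelled P3 alone it called 5 of 8, against 48.1%. Leaving out one library lowered the count to 2 without replicate 1 of P1 or of P2 and to 3 without replicate 2 of either or without any one library of P4 or P5; it stayed at 5 without either library of P3.

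Hnf4a spans chr2:163332544-163398646 on the plus strand of NCBIM37 (mm9), the build of the count files, and is transcribed from 2 alternative promoters whose transcripts the gene counts do not separate. Promoter entries were found for Hnf4a, Cdx2 and Klf4, and those of all 3 are printed because each was searched for motifs of these factor families and of HNF1. Each stretch runs from 250 bases before to 50 bases after a transcription start, on the strand of the gene, from RefSeq on build GRCm38.p6, which differs from the build of the files. The upstream one is chr2:163506607-163506906.

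Hnf4a upstream promoter: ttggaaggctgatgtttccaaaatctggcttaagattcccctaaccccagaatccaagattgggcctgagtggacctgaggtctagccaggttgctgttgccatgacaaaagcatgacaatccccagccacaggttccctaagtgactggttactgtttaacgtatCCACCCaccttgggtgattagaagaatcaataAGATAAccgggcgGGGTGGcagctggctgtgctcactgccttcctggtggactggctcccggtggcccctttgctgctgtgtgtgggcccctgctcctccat

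The downstream one is chr2:163546905-163547204, also on the plus strand.

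Hnf4a downstream promoter: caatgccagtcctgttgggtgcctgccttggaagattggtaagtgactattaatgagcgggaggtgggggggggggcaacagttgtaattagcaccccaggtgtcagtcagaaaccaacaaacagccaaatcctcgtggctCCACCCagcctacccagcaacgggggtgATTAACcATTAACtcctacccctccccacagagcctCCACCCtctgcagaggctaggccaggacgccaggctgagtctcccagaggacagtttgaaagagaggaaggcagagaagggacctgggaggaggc

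Capitals mark matches, on either strand, to 5 short motifs: CAAAGTC for HNF4, GTTAAT for HNF1, CAATAAA for CDX, AGATAA for GATA and CCACCC for the KLF family. The upstream promoter held 1 GATA motif, 52 bases before the start, and 2 KLF motifs; the downstream one held 2 HNF1 motifs and 2 KLF motifs. Of the 32851 promoters in the RefSeq table, 11.2% held the GATA motif, 7.10% the HNF1 motif, 31.5% the KLF motif, 4.60% the CDX motif and 4.44% the HNF4 motif. Binding was not measured in these samples.

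Hnf4a was measured at 1165 and 1408 TMM-scaled CPM in P1 and 420.0 and 667 in the libraries labelled P2, with 970.5 and 929 in P3. P4 had 719.9 and 875 and P5 748 and 913. Both P1 libraries lay above all others and both P2 libraries below all others, while P4 and P5 overlapped. The study describes Hnf4a as enriched in P2 and as more expressed in P1. None of the pairwise differences passed the threshold: the largest, P2 against P1, was a log2 fold change of -1.24 ± 0.32 (SE) with an adjusted p of 0.0113, and in P4 against P1 it was -0.69 ± 0.31 (SE) (adjusted p = 0.104). That of P2 against P1 lay close to the threshold, and Hnf4a passed it with the DESeq2 size factors (adjusted p = 0.00870), with no filter on low counts (0.00122), in the DESeq2 test (1.58e-05) and with a replicate block (0.00702).

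Hnf4g, the paralog of Hnf4a that shares much of its binding in the adult intestine, lies at chr3:3508030-3659775 and had a far wider range. It was at 1431 and 1105 TMM-scaled CPM in P1, 539 and 374 in the libraries labelled P3, 376 and 298 in P5, 347 and 266 in P4 and 57.9 and 131 in those labelled P2. P1 stood above every other library and P2 below every other, with P3, P5 and P4 overlapping their neighbours between them. Hnf4g was lower in P4 against P1 by a log2 fold change of -2.05 ± 0.41 (SE), or 4.14-fold (adjusted p = 0.00448). The libraries labelled P2 were lower than P1 by -3.75 ± 0.44 (SE), or 13.4-fold (adjusted p = 0.000387), the largest fall of the 8 factors in that comparison. This call held in each of the 18 alternatives that could be run. Among them is the looser threshold of 0.05 in the same fit, which any call at 0.01 passes. Its changes in P2 against P4 (-1.70 ± 0.41 (SE), adjusted p = 0.0138) and P3 against P1 (-1.47 ± 0.40 (SE), 0.0212) missed the threshold of 0.01. Both passed in the DESeq2 test (adjusted p = 6.75e-05 and 0.000220) and with no filter (1.18e-06 and 3.25e-05). The call in P4 against P1 was lost without any one library of P1 or P4 (log2 fold change -2.24 to -1.86, adjusted p = 0.0146 to 0.0479).

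Cdx2, the caudal homeobox gene whose loss in the embryo turns intestine toward a more anterior identity, lies at chr5:148112381-148118846 on the minus strand of NCBIM37. Its promoter is chr5:147307200-147307499 of GRCm38.p6, minus strand, in the direction of transcription.

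Cdx2 promoter: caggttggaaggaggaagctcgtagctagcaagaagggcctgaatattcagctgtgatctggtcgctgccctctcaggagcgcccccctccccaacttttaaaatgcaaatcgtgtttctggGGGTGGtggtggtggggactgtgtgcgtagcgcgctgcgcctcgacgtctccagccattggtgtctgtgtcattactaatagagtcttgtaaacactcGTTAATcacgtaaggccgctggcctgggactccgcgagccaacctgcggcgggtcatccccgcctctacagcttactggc

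It held 1 HNF1 motif, 30 bases before the start, and 1 KLF motif, and no match to the HNF4, CDX or GATA motif. Cdx2 was measured at 204 and 260.1 TMM-scaled CPM in P1 and 73.8 and 108 in the libraries labelled P2, with 244 and 213 in P3. Levels were 156 and 198 in P4 and 176 and 210.0 in P5. The P2 libraries lay below all others. Above them P4 overlapped P5, P1 overlapped P5 and P3, and P3 lay above P4 and P5. Cdx2 was lower in P2 against P1 by a log2 fold change of -1.35 ± 0.26 (SE), or 2.56-fold (adjusted p = 0.00311), whereas its changes in P2 against P4 (-0.96 ± 0.26 (SE), adjusted p = 0.0229) and P4 against P1 (-0.39 ± 0.26 (SE), 0.244) did not pass. Without P1 replicate 2 or P2 replicate 1, the log2 fold change of P2 against P1 was -1.16 to -1.10 and its adjusted p 0.0221 to 0.0296, short of the threshold.

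Cdx1, the related gene that is known as a target of Wnt signalling in crypts, did not follow it. Its levels were 129.60 and 153 TMM-scaled CPM in P1 and 209 and 176 in the libraries labelled P2, with 224 and 155 in P3. It was at 183 and 151 in P4 and 219 and 149.8 in P5. Each population overlapped its neighbours in the order of means, and no pairwise comparison passed: the log2 fold changes ran from -0.04 (P5 against P3) to 0.45 ± 0.27 (SE, P2 against P1, adjusted p = 0.203). Cdx1 was the only one of the 8 factors with a mean in the libraries labelled P2 above that of P1, a difference not past the threshold in any alternative.

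Gata4, the GATA factor that keeps the jejunum from taking on features of the ileum, was measured at 192 and 229.7 TMM-scaled CPM in P1 and 70.4 and 81.0 in the libraries labelled P2, with 218 and 148 in P3. P4 had 153 and 144 and P5 152 and 147. The P2 libraries were again below every other library, and above them each population overlapped its neighbour in the order of means. Gata4 was lower in P2 against P1 by a log2 fold change of -1.48 ± 0.24 (SE), or 2.78-fold (adjusted p = 0.00126). In P2 against P4 it missed the threshold (-0.97 ± 0.23 (SE), adjusted p = 0.0142), and passed once the libraries labelled P3 were left out of the fit (adjusted p = 0.00481) or the mitochondrial genes were (0.00761). Without P2 replicate 1, Gata4 in P2 against P1 had a log2 fold change of -1.37 and an adjusted p of 0.0149.

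Gata6, expressed along the whole small intestine and in the colon, showed another pattern. It was at 215 and 153 TMM-scaled CPM in P1 and 73.8 and 87.7 in the libraries labelled P2, with 88.1 and 74.8 in P3. Levels were 73.3 and 89.8 in P4 and 95.1 and 92.0 in P5. Both P1 libraries lay above all others, P5 just above the rest, and P4, P3 and P2 overlapped. Gata6 was lower than in P1 by nearly the same log2 fold change in P4 (-1.18 ± 0.23 (SE), adjusted p = 0.00387), in P2 (-1.19 ± 0.23 (SE), 0.00290) and in P3 (-1.18 ± 0.23 (SE), 0.00545); the 3 comparisons share the P1 libraries. In P2 against P4, its log2 fold change was -0.01 ± 0.23 (SE) (adjusted p = 0.974). Without P1 replicate 1 or either library of P4 the call of P4 against P1 ended, and without P1 replicate 1 or either library of P2 that of P2 against P1 (log2 fold change -1.33 to -0.91, adjusted p = 0.0115 to 0.0437). The call in P3 against P1 was lost without any one library of P1, P3, P4 or P5 (log2 fold change -1.38 to -0.93, adjusted p = 0.0107 to 0.0357). An antisense long noncoding RNA, 1010001N08Rik, shares 58 exon bases with Gata6, and since the counting did not use strand their reads there cannot be told apart; it had 8 to 268 counts a library, against 166 to 1270 for Gata6.

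Klf4 had the smallest adjusted p of the 8 over all populations. It lies at chr4:55540013-55545347 on the minus strand of NCBIM37, and its promoter is chr4:55532426-55532725 of GRCm38.p6, minus strand.

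Klf4 promoter: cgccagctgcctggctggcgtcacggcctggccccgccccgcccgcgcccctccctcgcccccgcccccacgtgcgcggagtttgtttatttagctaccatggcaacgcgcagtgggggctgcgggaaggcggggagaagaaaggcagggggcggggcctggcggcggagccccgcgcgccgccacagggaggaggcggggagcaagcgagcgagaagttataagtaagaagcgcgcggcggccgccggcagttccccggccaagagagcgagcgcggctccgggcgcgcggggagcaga

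None of the 5 motifs matched in it, and 74.3% of its bases are G or C, against 54.0% and 57.3% in the promoters of Hnf4a and 57.3% in that of Cdx2. Entries for Hnf4g, Cdx1, Gata4, Gata6 and Klf5 are not printed. Klf4 was measured at 522 and 709.6 TMM-scaled CPM in P1 and 212 and 379 in the libraries labelled P2, but at 61.6 and 50.2 in P3, 49.4 and 40.3 for P4 and 60.05 and 40.5 for P5. P1 lay above P2 and P2 above the other 3 populations, which overlapped one another. Klf4 was lower in P4 against P1 by a log2 fold change of -3.78 ± 0.37 (SE), or 13.7-fold (adjusted p = 0.000903), and in P3 against P1 by -3.47 ± 0.36 (SE), or 11.1-fold (adjusted p = 0.00137). In P2 against P4, it was higher by 2.72 ± 0.35 (SE), or 6.60-fold (adjusted p = 0.00101), the only rise past the threshold among the 8 factors in any of the 6 pairs. The log2 fold change of -1.06 ± 0.33 (SE) in P2 against P1 did not pass (adjusted p = 0.0268), but passed in the DESeq2 test (0.00618) and with no filter (0.00116). Without either library of P4 the adjusted p rose to 0.0111 to 0.0151 in P4 against P1 and 0.0104 to 0.0159 in P2 against P4, with log2 fold changes of -3.92 to -3.64 and 2.57 to 2.85, and without P1 replicate 1 it was 0.0101 in P3 against P1, with a log2 fold change of -3.68.

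Whether the difference of OSCARmed from OSCARlow was itself different on the 2 sides of the EF1a axis was tested for all genes, a test chosen after the data were seen. The log2 fold change was -3.78 ± 0.37 (SE) in the EF1alow pair (P4 against P1) and -0.15 ± 0.34 (SE) in the EF1ahigh pair (P5 against P3), and the difference between them was -3.63 ± 0.48 (SE) (adjusted p = 0.00887). Klf4 was 1 of the 8 factors past the threshold, the other 7 missing it, where 0.810% of all genes were called; Gata6 (-1.38 ± 0.32 (SE), adjusted p = 0.0220) and Hnf4g (-1.61 ± 0.56 (SE), 0.0763) came next. In the same contrast the 8 Paneth markers had a median of -7.16, with 1 called lower, and the 8 immune markers -3.79, with 0 called, against -0.03 over all genes. Their part in the difference was not tested. If the labels P2 and P3 were exchanged, the contrast would be -1.22 ± 0.47 (SE) for Klf4, with an adjusted p of 0.0733. The difference uses the libraries labelled P3, and it missed the threshold when any one of the 10 libraries was left out (log2 fold change -3.90 to -3.34, adjusted p = 0.0104 to 0.0600).

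Klf5, the KLF factor of dividing crypt cells, had another order. It was at 249 and 227 TMM-scaled CPM in the libraries labelled P3, 161 and 222 in P5, 155 and 209.6 in P4, 143 and 187 in P1 and 61.0 and 80.1 in those labelled P2. The P3 libraries were above and the P2 libraries below all others, and P5, P4 and P1 overlapped. Klf5 was lower in P2 against P4 by a log2 fold change of -1.37 ± 0.27 (SE), or 2.58-fold (adjusted p = 0.00592), and in P2 against P1 by -1.22 ± 0.27 (SE), or 2.33-fold (adjusted p = 0.00586). Its difference in P3 against P1 (0.53 ± 0.27 (SE), adjusted p = 0.154) did not pass. Each call was lost without any one of the 4 libraries compared, with log2 fold changes of -1.61 to -1.15 and adjusted p of 0.0173 to 0.0562 in P2 against P4, and of -1.42 to -1.01 and 0.0121 to 0.0518 in P2 against P1.

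Taken comparison by comparison, the calls of the 8 factors were spread unevenly, as were those of all genes. In P4 against P1, OSCARmed against OSCARlow, 3 of the 8 factors were lower (Hnf4g, Gata6 and Klf4, each in 2 of 2 libraries) and 0 higher, where 23.4% of all genes were called, 14.0% lower and 9.44% higher. The median log2 fold change of the 8 was -0.60, against 0.06 over all genes tested. Of the 8 immune markers, 5 were lower in the same pair, with a median of -8.40, and their part in it was not tested. Fewer of these markers, and fewer of all genes, were called without P1 replicate 1 or either library of P4. Without the libraries labelled P2 and P3 the same 3 factors were called, of 33.7% of genes. Without P4 replicate 1 or P4 replicate 2, edgeR called 0 genes, the 8 factors included, while 5612 and 5301 genes had an unadjusted p under 0.05. Without P1 replicate 1 it called 1 of the 8 and without P1 replicate 2 it called 2.

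In P2 against P4, by the labels OSCARhigh against OSCARmed, 1 factor was higher (Klf4) and 1 lower (Klf5), each in 2 of 2 libraries. Over all genes 14.3% were called, 8.0% higher and 6.31% lower. With the labels P2 and P3 in question, the gate of the libraries labelled P2 is open. Hnf4g, Cdx2 and Gata4 had adjusted p between 0.01 and 0.05, and the DESeq2 test, the looser threshold of 0.05 and the fit with no filter each called 5 of the 8. Without the libraries labelled P3, Gata4 was called beside Klf4 and Klf5, where 20.8% of genes were. The median log2 fold change of the 8 was -0.76, against 0.05 over all genes. In the same pair 8 of 8 Paneth and 7 of 8 goblet markers were higher, with medians of 9.36 and 3.39. Of the 12 cycling genes 11 were lower, with a median of -3.36. The part of these markers was not tested. Without P2 replicate 1 or P2 replicate 2, 1 factor (Klf4) was called. Without P4 replicate 1 or P4 replicate 2 edgeR called 0 of the 8 and 393 and 320 genes in all, with 4157 and 3957 at an unadjusted p under 0.05; DESeq2 was run only on all 10 libraries.

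P2 against P1 is by the labels OSCARhigh against OSCARlow, with the gate of the libraries labelled P2 open as above. In it 5 of the 8 factors were lower (Hnf4g, Cdx2, Gata4, Gata6 and Klf5, each in 2 of 2 libraries) and 0 higher. Over all genes 29.1% were called, 15.2% lower and 13.9% higher. The median log2 fold change was -1.23 for the 8 and 0.01 for all genes. These libraries labelled P2 carry the secretory markers. In the same pair 8 of 8 goblet, 9 of 9 enteroendocrine, 4 of 7 tested tuft and 3 of 8 Paneth markers were higher, and 5 of 8 immune markers were lower, with a median of -8.32. Also higher were 5 of the 12 stem cell markers, with a median of 1.55. What part those cells have in the differences was not tested. Fewer enteroendocrine markers were called without P1 replicate 2 or P2 replicate 2. Fewer tuft and fewer Paneth markers were called without any one library of P1 or P2. The immune markers called were fewer without any one library of P1, P2 or P4. In each of these fits fewer of all genes were called too. Without the libraries labelled P3 the same 5 factors were called, of 37.8% of genes. The number of factors called fell to 1 without P2 replicate 1 and to 3 without P2 replicate 2 or either library of P1.

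On the EF1a axis, P3 against P1 is by the labels EF1ahigh against EF1alow within OSCARlow. It had 2 factors lower (Gata6 and Klf4, each in 2 of 2 libraries) and 0 higher. Over all genes 15.6% were called, 7.54% lower and 8.01% higher. The median log2 fold change was -0.32 for the 8 and -0.03 for all genes. In the same pair 5 of the 12 cycling genes were higher and 0 lower, with a median of 1.77. Of the 6 pan-epithelial markers 2 were higher and 0 lower, with a median of 1.09. The part of these markers was not tested. This comparison rests on the P3 libraries with their high mitochondrial share. With mitochondrial genes left out before scaling, Gata6 (adjusted p = 0.00447) and Klf4 (0.00124) were still called. Without P1 replicate 1 edgeR called 0 genes, with 5023 at an unadjusted p under 0.05, and without any one of P1 replicate 2 or the libraries of P3, P4 and P5 it called Klf4 alone of the 8.

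The remaining pairs showed no call for any of the 8. In P5 against P3, edgeR called 0% of genes, with 1587 of 13706 at an unadjusted p under 0.05 and 0 of the 8 factors among them; DESeq2 called 0 of the 8 and 0.292% of all genes. The log2 fold changes of the 8 ran from -0.44 (Hnf4g) to 0.20 (Gata6). In P5 against P4, edgeR called 0%, with 350 genes at an unadjusted p under 0.05 and again 0 of the 8, and DESeq2 called 0 of the 8 and 0.219% of all genes. Without the libraries labelled P2 and P3 edgeR again called 0%, with 516 genes at an unadjusted p under 0.05 and 0 of the 8. With all libraries the log2 fold changes of this pair were the smallest, from 0.01 (Gata4) to 0.20 (Gata6), each with a standard error of 0.22 to 0.39. A miss at 2 libraries a population does not show that levels were the same.

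**Figure D2:**
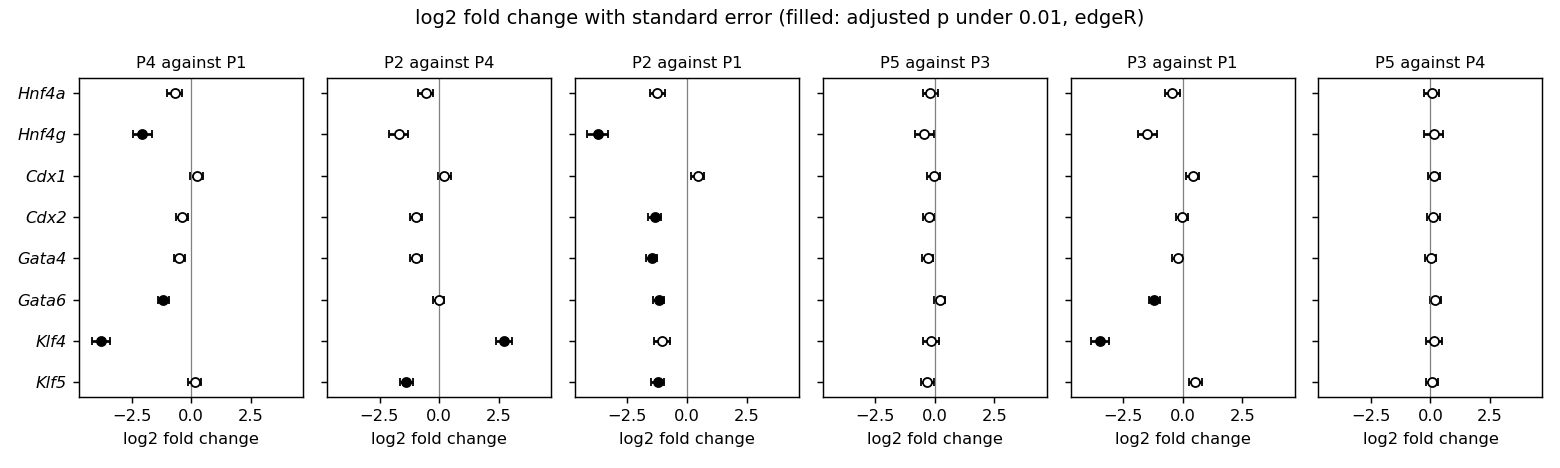
log2 fold change with its standard error (horizontal axis) of the 8 factors (vertical axis) in the 6 pairs of populations; filled points passed an adjusted p of 0.01 in edgeR. Klf4 is lower than in P1 in P4 and P3 and higher in P2 against P4, Hnf4g, Cdx2, Gata4, Gata6 and Klf5 are lower in P2 against P1, and no point is filled in P5 against P3 or P5 against P4.

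The scaling moved all genes together in some comparisons. With mitochondrial genes left out before scaling, the median log2 fold change of all genes rose by 0.20 in P4 against P1 and by 0.14 in P2 against P1, and moved by less than 0.1 either way in the other pairs. The share of higher genes among those called in P4 against P1 went from 40.3% to 53.1%. The 12 calls made for the 8 factors in the 6 pairs all kept their direction and their side of the threshold under it, and Hnf4g and Gata4 were called in addition in P2 against P4. The levels printed here include mitochondrial counts in the library size. Without them, 20 of the 40 population means of the 8 factors moved by at least the SD of their libraries.

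Within each pair of related factors, the share of the first gene was computed from counts per kilobase of exon, with the 95% exact (Clopper-Pearson) interval of the counts, which covers counting error only. Hnf4a made up 41.4% and 52.5% of the HNF4 pair in P1 and 86.3% and 81.6% in the libraries labelled P2, with 60.9% and 68.3% in P3. The share was 64.3% and 74.1% in P4 and 63.3% and 72.7% in P5. The HNF4 message was thus near parity in P1 and mostly Hnf4a elsewhere, and P1 and P2 each stood apart from all other libraries. The summed level of the pair went from 548 ± 18.6 TMM-scaled CPM per kb in P1 to 129.97 ± 46.6 in P2.

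Klf4 made up 67.3% and 68.1% of the KLF4 and KLF5 pair in P1 and 66.2% and 72.7% in the libraries labelled P2, but 12.2% and 11.1% in P3, 15.2% and 9.75% for P4 and 17.3% and 9.29% for P5. The more abundant gene of the pair was thus Klf4 in each library of P1 and P2 and Klf5 in each library of P3, P4 and P5, far outside the counting intervals (for P1 replicate 1, 65.6 to 69.0%; for P5 replicate 1, the highest of the rest, 15.9 to 18.8%). Cdx1 made up 73.2 ± 7.56% of the CDX pair in the libraries labelled P2 and 44.1 ± 1.29% in P1, with 51.4 ± 4.09%, 54.9 ± 7.52% and 54.8 ± 9.68% in P3, P4 and P5. In the GATA pair the share of Gata4 was 48.6 ± 9.11% in P1 and 43.4 ± 0.571% in P2, against 64.4 ± 3.63% in P3, 59.8 ± 4.48% in P4 and 56.6 ± 0.0169% in P5, so that its lowest libraries were in P1 and P2 and the P1 libraries differed from each other by more than their intervals. With 2 libraries against 2, the smallest two-sided p of an exact permutation test is 0.333, and no test was made of these shares.

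**Figure D3:**
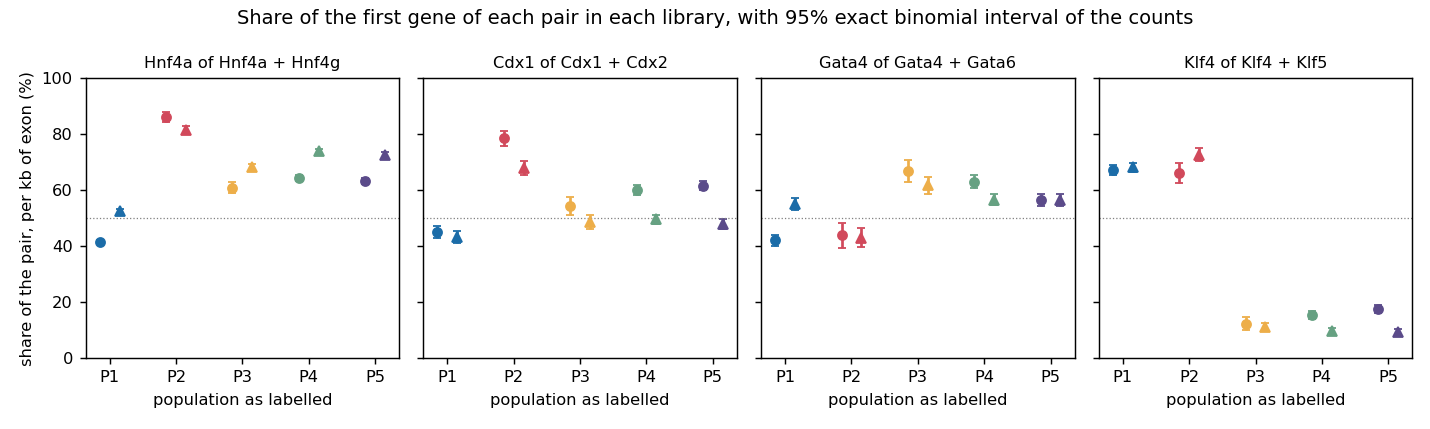
Share of the first gene of each pair (percent, per kilobase of exon) in each library, by labelled population; bars are 95% exact binomial intervals of the counts. Klf4 runs from 66.2% upward in P1 and P2 and stays at 17.3% or less in P3, P4 and P5, and Hnf4a is highest in P2.

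For each factor, the 3 genes with the most similar profile were found by Pearson correlation of log2 CPM over the 10 libraries, among the 9339 tested genes with a mean log2 CPM of at least 3. The libraries fall into 5 populations, share depth and composition, and are not independent points, so the values are a description. Hnf4g was followed by Sesn1 (r = 0.998), Khk (0.996) and Prdx1 (0.995); Khk encodes the enzyme that starts fructose breakdown and Prdx1 a peroxide-reducing enzyme. Hnf4a was followed by Wipf1 (r = 0.985), Lcmt1 (0.981) and Pnp2 (0.975), and Gata4 by Hadha (r = 0.995), Mrpl15 (0.991) and Gna11 (0.988), of which Hadha encodes a subunit of the mitochondrial enzyme of fatty acid oxidation. Klf4 was most like Parp12 (r = 0.994), Stat3 (0.990) and Plekha1 (0.989), Stat3 being the transcription factor of cytokine signalling. Cdx2 was most like Cerk (r = 0.991), Gm8399 (0.988) and Cenpv (0.983), Klf5 like Blmh (r = 0.993), Gm6104 (0.987) and Mrpl48-ps (0.983) and Gata6 like Chd1 (r = 0.970), Fnbp1l (0.968) and Osbpl1a (0.965). Cdx1 had the weakest neighbours, Slc3a2 (r = 0.878), Pqlc2 (0.870) and Slc39a14 (0.861), the first of which encodes the heavy chain of amino acid transporters.

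A further 23 regulators known from enterocytes were all tested, in the one fit of all libraries. In P4 against P1, 1 was higher and 6 lower, where 23.4% of all genes were called, with a median log2 fold change of -0.65, against 0.06 over all genes. For each listed gene named below as risen or fallen, both libraries of one population lay on the same side of both of the other. Ehf, an ETS factor of epithelia, was the one that rose, from 53.5 ± 2.26 TMM-scaled CPM in P1 to 203 ± 8.12 in P4 (log2 fold change 1.93 ± 0.21 (SE), adjusted p = 0.000903). Maf, a leucine zipper factor of the villus, fell from 583 ± 71.0 to 58.6 ± 20.7 (log2 fold change -3.32 ± 0.74 (SE), adjusted p = 0.00726), and Pparg, a fatty acid receptor, from 26.1 ± 0.00423 to 5.49 ± 2.20 (log2 fold change -2.24 ± 0.39 (SE), adjusted p = 0.00258). Smad4, which carries BMP signals into the nucleus, fell from 263 ± 74.5 to 108 ± 0.444 (log2 fold change -1.28 ± 0.23 (SE), adjusted p = 0.00300). The 3 most abundant of the list did not pass. The vitamin D receptor gene Vdr was at 893 ± 83.6 in P1 and 568 ± 66.9 in P4 (adjusted p = 0.0995), the ETS factor gene Elf3 at 203 ± 104 and 291 ± 82.7 (0.303). Creb3l3, a membrane-bound regulator of lipid genes, was at 464 ± 204 and 122 ± 96.7 (0.0970). Ehf lost the call without either library of P4 (adjusted p up to 0.0151). Maf and Pparg lost the call without either library of P1 or either library of P4 (adjusted p up to 0.0613 and 0.0254). Smad4 lost the call without P1 replicate 1 or either library of P4 (adjusted p up to 0.0329). Fewer of the list, and fewer of all genes, were called without any one library of P1 or P4. Without the libraries labelled P2 and P3, 1 of the list was higher and 9 lower, where 33.7% of all genes were called.

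In P2 against P1, 5 of the 23 were higher and 9 lower, where 29.1% of all genes were called, 13.9% higher and 15.2% lower, with a median of -1.10, against 0.01 over all genes. Foxa3 and Foxa2, forkhead factors known in secretory cells, had the largest rises, from 7.38 ± 5.65 to 130.27 ± 2.86 TMM-scaled CPM (log2 fold change 4.14 ± 0.49 (SE), adjusted p = 0.000395) and from 3.02 ± 1.16 to 37.9 ± 0.0838 (log2 fold change 3.64 ± 0.60 (SE), adjusted p = 0.00140). Creb3l3 fell from 464 ± 204 to 30.1 ± 15.4 (log2 fold change -3.94 ± 0.94 (SE), adjusted p = 0.00837) and Maf from 583 ± 71.0 to 38.3 ± 37.3 (log2 fold change -3.91 ± 0.77 (SE), adjusted p = 0.00326). Vdr fell from 893 ± 83.6 to 118 ± 28.4 (log2 fold change -2.92 ± 0.31 (SE), adjusted p = 0.000315), and Elf3 did not pass (log2 fold change 0.27 ± 0.39 (SE), adjusted p = 0.597). In P2 against P4, 2 of the 23 were higher and 1 lower (14.3% of all genes called), and in P3 against P1, 1 was higher and 2 lower (15.6%). None passed in edgeR in P5 against P3 or P5 against P4, where 3 and 0 had an unadjusted p under 0.05 and DESeq2 called 0 and 0. Foxa2 lost the call without P1 replicate 1 or P2 replicate 1 (adjusted p up to 0.0151). Creb3l3 lost the call without either library of P1 or either library of P2 (adjusted p up to 0.0728). Maf lost the call without either library of P1 or P2 replicate 1 (adjusted p up to 0.0142). Foxa3 and Vdr kept it with each library left out in turn. Fewer of the list, and fewer of all genes, were called in P2 against P1 without either library of P1 or P2 replicate 1.

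Of 20 other GATA, KLF and CDX genes, 13 passed the filter; Gata1, Gata2, Cdx4, Klf1, Klf8, Klf14 and Klf17 did not. In P4 against P1, 3 of the 13 were lower and 0 higher, a share near the 23.4% of all genes that were called, with a median log2 fold change of -0.46, against 0.06 over all genes. Klf6, an immediate early gene, fell from 338 ± 22.9 TMM-scaled CPM in P1 to 49.2 ± 6.65 in P4 (log2 fold change -2.78 ± 0.32 (SE), adjusted p = 0.000903). Gata5, the third intestinal GATA factor, fell from 177 ± 51.6 to 61.6 ± 0.203 (log2 fold change -1.52 ± 0.26 (SE), adjusted p = 0.00228). Klf3 fell from 163 ± 16.5 to 78.1 ± 6.25 (log2 fold change -1.06 ± 0.21 (SE), adjusted p = 0.00433). The high level of P1 that Gata6 and Klf4 showed was also measured for Gata5 and Klf6. Klf6 was at 321 and 354 in P1 and 66.8 and 124 in the libraries labelled P2, with 75.9 and 53.3 in P3. P4 had 44.5 and 53.9 and P5 64.3 and 65.8. The same 3 genes were lower in P3 against P1 (15.6% of all genes called), which shares the P1 libraries. In P2 against P1, 2 were higher and 1 lower (29.1% of all genes called): Klf12, at 0.508 and 0.836 TMM-scaled CPM in P1 and 14.3 and 14.9 in P2, and Klf7, at 6.10 and 7.36 in P1 and 16.8 and 21.2 in P2 (adjusted p = 0.00415), rose. Klf6 fell (log2 fold change -1.82 ± 0.31 (SE), adjusted p = 0.00158), while Gata5 (0.0103) and Klf3 (0.0558) had adjusted p above 0.01. Klf6 lost the call in P4 against P1 without either library of P4 (adjusted p up to 0.0151). Gata5 lost the call in P4 against P1 without P1 replicate 2 or either library of P4 (adjusted p up to 0.0258). Klf3 lost the call in P4 against P1 without either library of P1 or either library of P4 (adjusted p up to 0.0515). Klf12 lost the call in P2 against P1 without P1 replicate 1 or P2 replicate 1 (adjusted p up to 0.0104). Klf7 lost the call in P2 against P1 without either library of P1, either library of P2, either library of P4 or either library of P5 (adjusted p up to 0.0332). Klf6 lost the call in P2 against P1 without P2 replicate 1 (adjusted p up to 0.0104). Fewer of the list, and fewer of all genes, were called in P4 against P1 without P1 replicate 2 or either library of P4. Without the libraries labelled P2 and P3, 0 were higher and 3 lower of 11 tested, where 33.7% of all genes were called.

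The list of 22 enterocyte genes that HNF4 or CDX2 is known to bind or drive was fully tested. Its summed level was 54787 and 44428 TMM-scaled CPM in P1, 38959 and 12577 in the libraries labelled P3, 27640.4 and 12555 in P5, 17112 and 7259 in P4 and 3871 and 7800.2 in those labelled P2. In P3, P4 and P5 the first library was well above the second, a gap between replicates much wider than that of the factors themselves.

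In P2 against P1, 13 of the 22 were lower and 1 higher, where 29.1% of all genes were called, with a median log2 fold change of -3.06, against 0.01 over all genes. Treh, the brush border trehalase, fell from 114 ± 24.9 TMM-scaled CPM in P1 to 5.43 ± 3.36 (log2 fold change -4.34 ± 0.75 (SE), adjusted p = 0.00175). Apoc3, an apolipoprotein gene that HNF4A is known to drive, fell from 1059 ± 359 to 53.8 ± 54.5 (log2 fold change -4.29 ± 1.03 (SE), adjusted p = 0.00843). The microvillus gene Vil1 fell from 6015 ± 995 to 979.9 ± 457 (log2 fold change -2.62 ± 0.54 (SE), adjusted p = 0.00418). Gucy2c, the receptor of guanylin and a CDX2 target, was the one that rose, from 167 ± 15.2 to 399 ± 9.85 (log2 fold change 1.26 ± 0.27 (SE), adjusted p = 0.00547). The most abundant of the list, the fatty acid binding protein gene Fabp2, was at 17268 ± 938 in P1 and 927 ± 970.2 in P2 and just missed the threshold (adjusted p = 0.0107). The sucrase gene Sis was at 1232 ± 537 and 297 ± 51.4 (0.0443). Treh lost the call without P2 replicate 1 (adjusted p up to 0.0209). Apoc3 and Vil1 lost the call without either library of P1 or P2 replicate 1 (adjusted p up to 0.0503 and 0.0362). Gucy2c lost the call without either library of P1, either library of P2, either library of P4 or either library of P5 (adjusted p up to 0.0422). Fewer of the 22, and fewer of all genes, were called without any one library of P1 or P2.

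In P4 against P1, 4 of the 22 were lower and 0 higher, where 23.4% of all genes were called, with a median of -0.85, against 0.06 over all genes. Fabp2 fell from 17268 ± 938 to 651 ± 485 (log2 fold change -4.73 ± 1.09 (SE), adjusted p = 0.00843). Krt20, a keratin of differentiated cells, fell from 6067 ± 507 to 262 ± 67.5 (log2 fold change -4.53 ± 0.73 (SE), adjusted p = 0.00197). Apoc3 fell from 1059 ± 359 to 52.1 ± 39.0 (log2 fold change -4.35 ± 1.03 (SE), adjusted p = 0.00933) and Vil1 from 6015 ± 995 to 886 ± 251 (log2 fold change -2.76 ± 0.54 (SE), adjusted p = 0.00423). Sis, in contrast, was at 1232 ± 537 in P1 and 2152 ± 1335 in P4 and did not pass (adjusted p = 0.381). In P2 against P4, 2 were lower and 0 higher (14.3% of all genes called): Mttp, which loads lipid onto apolipoprotein B, fell from 894 ± 392 in P4 to 78.7 ± 11.1 (log2 fold change -3.51 ± 0.59 (SE), adjusted p = 0.00293). Alpi, the brush border phosphatase, fell from 219 ± 67.2 to 21.5 ± 7.13 (log2 fold change -3.34 ± 0.56 (SE), adjusted p = 0.00290). In P3 against P1, Krt20 alone was called (log2 fold change -3.32 ± 0.69 (SE), adjusted p = 0.00707), where 15.6% of all genes were called, and the median of the 22 was 0.35. For P5 against P3 and P5 against P4 edgeR called 0, with medians of -0.33 and 0.73. Of the 22, 0 and 3 had an unadjusted p under 0.05 and DESeq2 called 0 and 0. Fabp2 lost the call without either library of P1, either library of P4 or either library of P5 (adjusted p up to 0.0676). Krt20 lost the call without either library of P4 (adjusted p up to 0.0251). Apoc3 lost the call without either library of P1, either library of P3 or either library of P4 (adjusted p up to 0.0673). Vil1 lost the call without either library of P1 or either library of P4 (adjusted p up to 0.0491). Fewer of the 22, and fewer of all genes, were called in P4 against P1 without any one library of P1 or P4. Without the libraries labelled P2 and P3, 0 were higher and 5 lower, where 33.7% of all genes were called. Mttp lost the call in P2 against P4 without either library of P2 or P4 replicate 1 (adjusted p up to 0.0295). Alpi lost the call in P2 against P4 without either library of P2 or either library of P4 (adjusted p up to 0.0285). Krt20 lost the call in P3 against P1 without either library of P1, either library of P3, either library of P4 or either library of P5 (adjusted p up to 0.0416).

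**Figure D4:**
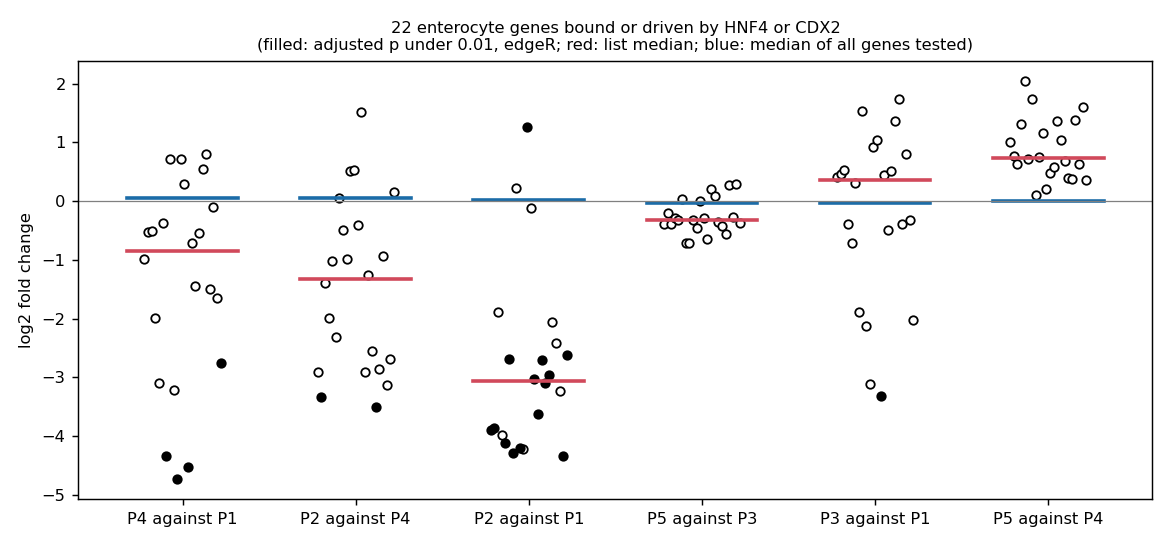
log2 fold change (vertical axis) of 22 enterocyte genes bound or driven by HNF4 or CDX2 in the 6 pairs of populations (horizontal axis); filled points passed an adjusted p of 0.01 in edgeR, the red line is the median of the list and the blue line that of all genes tested. The list median is -3.06 in P2 against P1, against 0.01 for all genes, and 0.73 in P5 against P4.

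Genes that mark regions of the gut were measured because GATA4 and CDX2 are tied to position and the stretch of intestine is not given. The 7 proximal genes summed to 14201 and 8294 TMM-scaled CPM in P1, 6496 and 1546 in the libraries labelled P3, 4936 and 1965 in P5, 3047 and 888 in P4 and 563 and 967 in those labelled P2. The distal genes, found under 6 of the 8 names listed, summed to at most 283 in any library. The 5 colon genes summed to at most 509.6, nearly all of it Car4 (509 and 178 in the P3 libraries). Of these 5, Hoxb13 and Hoxd10 had 0 counts in all 10 libraries and Car1 had 1 count. Of the distal genes, Fabp6, the bile acid binding protein of the ileum, was at 8.64 and 99.5 in P1 and 1.59 and 40.4 in P3, higher in replicate 2 of each population.

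In P2 against P1, 3 of the 7 proximal genes were lower and 1 higher, where 29.1% of all genes were called. Rbp2, which carries retinol in enterocytes, fell from 5351 ± 2221 to 247 ± 199 (log2 fold change -4.44 ± 1.07 (SE), adjusted p = 0.00842). Fabp1 fell from 4638 ± 1404 to 251 ± 139 (log2 fold change -4.21 ± 0.92 (SE), adjusted p = 0.00548) and the lactase gene Lct from 419.5 ± 1.14 to 34.1 ± 0.915 (log2 fold change -3.62 ± 0.69 (SE), adjusted p = 0.00287). The glucose transporter gene Slc5a1 did not pass (adjusted p = 0.0161). Cybrd1, a ferric reductase, rose from 7.55 ± 6.12 to 139 ± 36.7 (log2 fold change 4.19 ± 0.55 (SE), adjusted p = 0.000734). Of the 4 distal genes tested 3 were lower, namely Osta (log2 fold change -4.13 ± 0.50 (SE), adjusted p = 0.000414) and Ostb, at 72.3 and 82.8 in P1 and 0.610 and 8.92 in P2, which encode the subunits of a bile acid exporter. The third was Nr0b2, at 8.47 and 7.86 in P1 and 0 and 0.892 in P2; Fabp6 did not pass (0.0800). Of the 2 colon genes tested, Aqp8 was lower, at 6.27 and 4.68 in P1 and 0 and 0.223 in P2, and Car4 did not pass (adjusted p = 0.0128). In P3 against P1, where 15.6% of all genes were called, Car4 rose from 44.1 ± 7.30 to 343 ± 234 (log2 fold change 2.95 ± 0.60 (SE), adjusted p = 0.00647), and in P2 against P4 it was lower, at 169 ± 73.7 in P4 and 8.44 ± 5.31 in P2 (log2 fold change -4.36 ± 0.67 (SE), adjusted p = 0.00201). Rbp2, Fabp1 and Lct lost the call without either library of P1 or either library of P2 (adjusted p up to 0.0642, 0.0515 and 0.0292). Cybrd1 kept it with each library left out in turn. Ostb lost the call without either library of P1 or P2 replicate 1 (adjusted p up to 0.0251). Nr0b2 lost the call without either library of P1, either library of P2, either library of P4 or either library of P5 (adjusted p up to 0.0520). Osta kept it with each library left out in turn. Aqp8 lost the call without either library of P1 or either library of P2 (adjusted p up to 0.0380). Car4 lost the call in P3 against P1 without either library of P1 or P3 replicate 1 (adjusted p up to 0.0483). Car4 lost the call in P2 against P4 without P2 replicate 2 or P4 replicate 1 (adjusted p up to 0.0200).

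Markers of other crypt cells differed between the populations too, and their part in the results was not tested. The 12 stem cell markers, led by Olfm4, summed to 738 and 1008 TMM-scaled CPM in P1 and 1986 and 1328 in the libraries labelled P2, with 607 and 3132 in P3. Levels were 5065 and 7405 in P4 and 4450.1 and 7256 in P5. Of the 12, 9 were higher in P4 against P1, as were 9.44% of all genes, and 5 in P2 against P1 (13.9%). The 12 cycling genes, led by Mki67, summed to 404 and 423 for P1, 134 and 109 for P2, 978 and 1725 for P3, 992 and 1141 for P4 and 1479 and 2317 for P5. Of these, 11 were lower in P2 against P4 (6.31% of all genes) and 7 in P2 against P1 (15.2%). Both the cycling genes and Klf5 were lowest in the P2 libraries. Fewer stem cell markers were called in P4 against P1 without any one library of P1 or P4. Fewer cycling genes were called in P2 against P4 without either library of P2 or P4 replicate 2. The same was so in P2 against P1 without P1 replicate 2. In each of these fits fewer of all genes were called too. Without the libraries labelled P2 and P3, 11 stem cell markers were higher and 0 lower in P4 against P1, where 33.7% of all genes were called.

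The secretory lists were highest in the libraries labelled P2, and P1 came second for Paneth markers. The 8 Paneth markers, led by Lyz1, were at 20118 and 64954 in P1, 514 and 870.1 in P4 and 10986 and 2252 in P5. Each of the 8 was lower in P4 against P1 (14.0% of all genes) and higher in P2 against P4 (8.0%), and Klf4 was lower and higher in these. In P3 against P1, where Klf4 was lower too, 2 of the 8 were lower (7.54% of all genes). The 2 went opposite ways in P2 against P1. There 3 of the 8 Paneth markers were higher (13.9% of all genes), with a median of 3.49. Klf4 had a log2 fold change of -1.06 ± 0.33 (SE) and did not pass in edgeR (adjusted p = 0.0268). The goblet markers, led by Fcgbp, were at 3357 and 4859.6 in P1, 10489 and 8329 in P4 and 8526 and 7335 in P5. In P4 against P1, 0 of the 8 were called by edgeR (5 at an unadjusted p under 0.05, 2 by DESeq2), where 23.4% of all genes were, and 7 were higher in P2 against P4 (8.0%). The 9 enteroendocrine markers, led by Chgb, summed to 2877 and 7349.7 in the libraries labelled P2 and to at most 448 elsewhere, and the 8 tuft markers, led by Trpm5, to 496 and 883 and to at most 197. In P1, where both libraries lay above all others for Hnf4a, Hnf4g, Gata6 and Klf4, the sums of the immune markers given above were highest too. Fewer Paneth markers were called in P4 against P1 without P1 replicate 2 or either library of P4. In P2 against P4 fewer were called without either library of P4. Fewer goblet markers were called in P2 against P4 without P2 replicate 2 or either library of P4. In each of these fits fewer of all genes were called too. Without the libraries labelled P2 and P3, 8 Paneth markers were lower and 4 goblet markers higher in P4 against P1, where 33.7% of all genes were called.

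**Figure D5:**
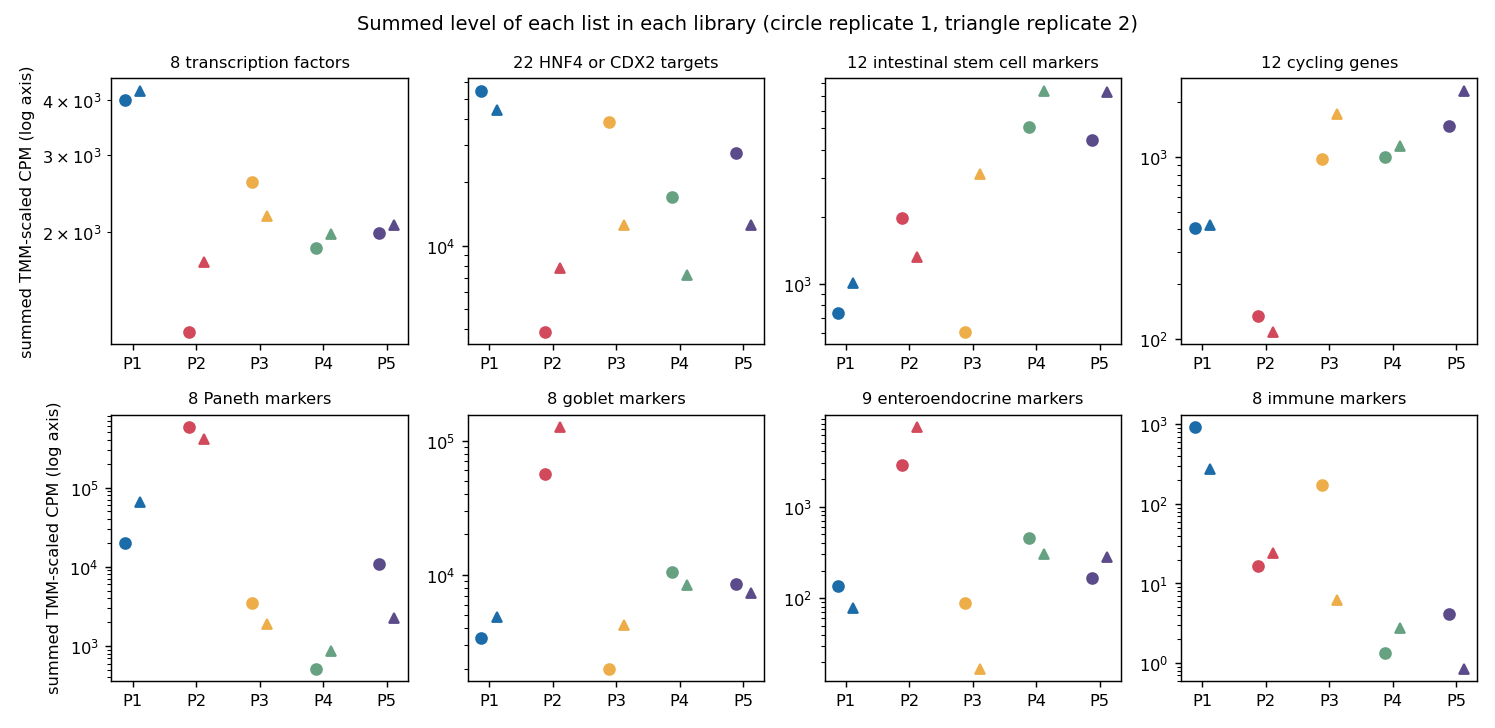
Summed TMM-scaled CPM (vertical axes, logarithmic) of the 8 factors, of 22 genes that HNF4 or CDX2 bind or drive and of 6 marker lists in each library, by labelled population; circles are replicate 1 and triangles replicate 2. The 8 factors sum to 4002 and 4206 in P1 and to 1179 and 1709 in the libraries labelled P2, where the Paneth, goblet and enteroendocrine markers are highest.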

How the data were processed

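Messenger RNA was measured in 10 libraries of sorted crypt cells. Per the labels, the authors aligned reads to mm9 with TopHat2 2.1.0 and counted them over exons with HTSeq 0.11.2 without regard to strand, and the deposited files hold raw counts per gene. The summary lines for unassigned reads made up 18.7% to 44.3% of each file and were left out, as were 206 rRNA genes.

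Counts on genes ran from 3857612 to 6485823 a library, so that 3 counts, taken as the floor, are 0.298 to 1.59 TMM-scaled CPM. edgeR 4.0.16 in R 4.3.3 fitted all 10 libraries in one model with TMM scaling and its filter on low counts; quasi-likelihood F tests were adjusted by Benjamini-Hochberg over 13706 genes, and a call is an adjusted p under 0.01. In each comparison the log2 fold change is the first population minus the second, and its standard error is the size of the change divided by the square root of F.

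The alternatives were DESeq2 1.42.0 size factors, the DESeq2 test, no filter, a threshold of 0.05, rRNA genes kept, mitochondrial genes left out, a replicate block, the labels P2 and P3 exchanged in the contrast of both sides, the libraries labelled P3, or P2 and P3, left out, and each library left out in turn, where the lone library of a population is assumed to vary like the others. Members and lists were chosen with earlier results of these data known. From each list the 3 genes with the highest mean CPM were named, and among its called genes the 2 with the largest and the 2 with the smallest fold change, as far as they are described; genes named for counts at 0 were chosen after their values were seen. Gata5 belongs to the regulators and to the family genes, and Lct, Fabp1 and Slc5a1 to the HNF4 or CDX2 list and to the proximal list. A gene of the colon list is not reported here and was left out of that list. RefSeq promoters were found for 3 of the 8 factors.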

Additional observations from a re-analysis of the deposited data

Results flagged for a closer look

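By the labels, Klf4 differed between the EF1alow and EF1ahigh sides of the sort in how OSCARmed compares with OSCARlow. The difference between these contrasts, P4 minus P1 less P5 minus P3, was -3.63 ± 0.48 (SE) on the log2 scale, with an adjusted p of 0.00887 in the edgeR quasi-likelihood test, and it was chosen for testing after the data were seen. It is singled out because the same contrast gave unlike values in 2 groups and the difference itself passed a test. Both P4 libraries lay below both P1 libraries (49.4 and 40.3 against 522 and 709.6 TMM-scaled CPM), while P5 and P3 overlapped (60.05 and 40.5 against 61.6 and 50.2). Across the 7 alternatives that keep all libraries and labels the adjusted p ran from 4.89e-15 to 0.00887, and with each of the 10 libraries left out in turn from 0.0104 to 0.0600, above the threshold each time. The P3 libraries, with their high mitochondrial share, enter this difference. Whether the labels P2 and P3 were exchanged could not be settled. The study reports OSCARhigh cells in stained sections as negative for Ki67 protein, and describes Krt19 and Hnf4a as enriched in P2. The cycling genes summed to 134 and 109 in the libraries labelled P2 and to 978 and 1725 in those labelled P3. Krt19 was at 267 and 541 and at 2668 and 1632 in these. With the labels exchanged the contrast was -1.22 ± 0.47 (SE), with an adjusted p of 0.0733. In the same contrast the 8 Paneth markers had a median of -7.16 (1 called, lower) and the 8 immune markers -3.79 (0 called), against -0.03 over all genes. The part of these libraries and markers in it was not tested.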

How the results depend on the processing

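All 13 calls of the 8 factors in the 6 pairs and in the difference between the 2 contrasts were also made with DESeq2 size factors, in the DESeq2 test, with no filter on low counts, at a threshold of 0.05, with rRNA genes kept, with mitochondrial genes left out and with a replicate block. Their log2 fold changes kept their sign in each alternative run. For P2 against P4 the factors called went from 2 to 5 with no filter, 5 in DESeq2, 5 at 0.05 and 4 without mitochondrial genes, and for the difference between the 2 contrasts from 1 to 3, 3 and 2 in the first 3 of these. Over all populations the count was 6 with no filter, 6 at 0.05 and 7 in DESeq2, and it went from 5 to 3 without the libraries labelled P2 and P3, which leaves fewer populations to differ.

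With no filter the genes called went from 4971 to 7931 over all populations, from 3214 to 5026 in P4 against P1, 1962 to 3500 in P2 against P4, 0 to 302 in P5 against P3, 2132 to 4005 in P3 against P1, 0 to 194 in P5 against P4 and 111 to 2298 for the difference between the 2 contrasts. At 0.05 they were 7929, 5777, 3987, 1 and 4652 for the first 5 of these, 6462 in P2 against P1 (from 3989) and 2370 for the difference between the 2 contrasts. DESeq2 called 3192 in P2 against P4, 40 in P5 against P3, 3582 in P3 against P1, 30 in P5 against P4 and 2053 for the difference between the 2 contrasts; DESeq2 size factors gave 362 and leaving out mitochondrial genes 375 for the last. With the labels P2 and P3 exchanged, that difference had 2 factors and 2045 genes called, and the call of Klf4 was lost. Except at the looser threshold, which calls more genes by itself, the cause was not tested.

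The replicate block treats same-numbered libraries as a set. Correlations of their deviations from population means ran from -0.0598 to 0.554, median 0.255, with 9 of 10 above 0.1, and whether the numbers mark shared animals or days is not stated. Over all populations the block called 6 of the 8 factors, from 5, and 5710 genes. With it, genes called were 4 in P5 against P3, 1 in P5 against P4 and 593 for the difference between the 2 contrasts; no call of the 8 factors was lost, and Hnf4a in P2 against P1 was gained in the pairs (log2 fold change -1.26, adjusted p = 0.00702).

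With each library left out in turn, factors and genes called ranged over 2 to 5 and 2657 to 6391 for all populations, 0 to 3 and 0 to 4412 in P4 against P1, 0 to 3 and 320 to 2763 in P2 against P4, 1 to 5 and 1576 to 5046 in P2 against P1, 0 to 0 and 0 to 1 in P5 against P3, 0 to 2 and 0 to 2126 in P3 against P1, 0 to 0 and 0 to 0 in P5 against P4, and 0 to 0 and 0 to 0 for the difference between the 2 contrasts. In the 4 pairs with calls the lowest counts came without a library of a population compared, which leaves it 1 library. Hnf4g in P2 against P1 was the 1 call of the 13 kept in all 10 of these fits. Comparisons that use the libraries labelled P2 or P3 could not be made without them. At the shallowest depth, 3857612 counts, the least covered of the 8 factors still had 116 counts.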
